A study of Mus musculus with 6 samples.

Results

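The genes of major histocompatibility complex (MHC) class II antigen presentation were compared between control and APPswe+ osteoblast (OB) progenitors. The 7 genes were H2-Aa, H2-Ab1 and H2-Eb1, which encode chains of the class II molecules that present peptide, Cd74, which encodes the invariant chain, H2-DMa and H2-DMb1, which encode the peptide editor, and Ciita, which encodes the class II transactivator. They were selected on the same comparison of the same 6 libraries that is described here, so their values are given as a description, without a test. All 7 were among the 17469 genes with values and among the 12701 genes that edgeR could test.

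Bulk RNA-seq was carried out on bone marrow stromal cells (BMSCs), adherent marrow cells expanded in culture, from 6-month-old mice. The control group (Ocn-Cre;Ai9, n = 3 libraries) carried Ocn-Cre, in which the promoter of osteocalcin drives Cre, and Ai9, a reporter that yields tdTomato once Cre has acted. The TgAPPswe group (TgAPPswe;Ocn-Cre;Ai9, n = 3 libraries) carried both of these alleles and, in addition, human amyloid precursor protein bearing the Swedish mutation (APPswe) under a CAG promoter, behind a stop cassette that Cre removes. None of the mice received a treatment, and in both groups the cultures were passaged once before tdTomato+ cells were sorted. The labels do not tie a library to a mouse, although the sample number given with this experiment counts mice, so p-values here measure the spread between these libraries, part of which may be technical. The RNA integrity required for sequencing was low.

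Class II molecules are pairs of an alpha and a beta chain that carry peptides from endocytosed proteins to the cell surface, where CD4+ T cells read them. The invariant chain fills the peptide groove until proteases in endosomes degrade it, and H2-DM then exchanges its last fragment for other peptides. Transcription of the chain, invariant chain and H2-DM genes depends on CIITA, a coactivator that does not bind DNA itself but docks on a complex of RFX, CREB and NF-Y factors at a shared set of promoter elements, the X, X2 and Y boxes. Dendritic cells, B cells and macrophages express the pathway, and interferon-gamma induces it in macrophages and many other cells through a receptor with attached JAK kinases and the factor IRF1.

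Promoter windows are shown here because CIITA acts through these elements, and because the windows differ in which of the searched letters they hold. Windows of 300 bases around the annotated start (250 before it and 50 after it, RefSeq, build GRCm38.p6) were found for 4 of the 7 genes, H2-Aa, H2-Eb1, H2-DMa and H2-DMb1. The windows of 3 of them are printed 5′ to 3′ on the strand of the gene, with capitals marking the letters that were searched, AACNGATG for the X box, TGACGTCA for the X2 box and GATTGG for the Y box. The letters of the motifs were picked with these windows in view. H2-Aa lies at chr17:34287774-34288073 on the minus strand, H2-Eb1 at chr17:34305617-34305916 on the plus strand and H2-DMb1 at chr17:34152941-34153240 on the plus strand.
H2-Aa: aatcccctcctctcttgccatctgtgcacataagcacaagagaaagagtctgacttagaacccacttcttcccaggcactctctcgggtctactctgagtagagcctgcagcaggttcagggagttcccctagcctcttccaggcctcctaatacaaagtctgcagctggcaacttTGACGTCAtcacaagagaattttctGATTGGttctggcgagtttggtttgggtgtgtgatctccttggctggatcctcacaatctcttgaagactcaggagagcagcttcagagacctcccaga
H2-Eb1: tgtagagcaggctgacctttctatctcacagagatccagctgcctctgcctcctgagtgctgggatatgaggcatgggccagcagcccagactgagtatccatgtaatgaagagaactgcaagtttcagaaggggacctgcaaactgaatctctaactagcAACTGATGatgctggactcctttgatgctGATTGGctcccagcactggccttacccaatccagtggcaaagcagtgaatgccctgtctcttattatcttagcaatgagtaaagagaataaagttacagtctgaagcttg
H2-DMb1: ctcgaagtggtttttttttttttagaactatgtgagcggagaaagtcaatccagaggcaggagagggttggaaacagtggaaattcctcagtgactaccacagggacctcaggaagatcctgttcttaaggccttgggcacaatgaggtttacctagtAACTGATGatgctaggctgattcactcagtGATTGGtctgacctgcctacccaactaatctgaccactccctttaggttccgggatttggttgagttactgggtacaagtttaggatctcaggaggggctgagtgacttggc

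In H2-Eb1 the X letters AACTGATG began 89 bases before the annotated start and the Y letters 60 bases before it, and in H2-DMb1 the distances were 92 and 62 bases. The GENCODE model of H2-DMb1, whose position is given further on, begins at 34153072, upstream of the RefSeq start used here. Both marked stretches of H2-DMb1 lie inside that model. The H2-Aa window held the X2 letters 74 bases before the start and the Y letters 49 bases before it, and no match to the X letters. H2-DMa had 2 annotated windows, of which 1 held the Y letters and neither held the X letters. Over 32851 windows of 27025 genes, searched on both strands, the X letters occurred in 2.32%, the X2 letters in 1.79% and the Y letters in 16.1%. The X letters followed on the same strand by the Y letters 10 to 40 bases further on occurred in 10 windows, or 0.0304%, and 4 of those 10 belonged to class II genes, namely H2-Eb1, H2-DMb1, H2-DMb2 and H2-Eb2. Because the letters were picked with class II windows in view, nothing is read from that count. For comparison, the stretch from the X to the Y letters is printed for the class II genes outside the 7 that hold both at that spacing, H2-Ob with 1 mismatch. The H2-Oa window held the Y letters, 44 bases before the start, no exact match to the X letters and 3 matches with 1 mismatch. None of these lay 10 to 40 bases before the Y letters, so that window is not printed. H2-DMb2 is shown at chr17:34145108-34145183, H2-Eb2 at chr17:34325525-34325599 and H2-Ob at chr17:34238800-34238872, all on the plus strand.
H2-DMb2: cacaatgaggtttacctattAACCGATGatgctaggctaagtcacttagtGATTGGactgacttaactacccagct
H2-Eb2: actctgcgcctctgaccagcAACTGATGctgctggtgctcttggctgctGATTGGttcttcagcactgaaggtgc
H2-Ob: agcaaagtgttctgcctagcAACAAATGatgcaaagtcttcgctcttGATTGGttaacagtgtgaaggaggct

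The capitals mark AACCGATG in H2-DMb2, AACTGATG in H2-Eb2, AACAAATG (1 mismatch to the X letters) in H2-Ob, and GATTGG in all of them. Allowing 1 mismatch in the X letters raised the share of all windows with both boxes to 0.493%. A match is a match of letters and was not measured as binding.

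Estimated counts summed to between 19340810 and 22037840 per library, and a count of 3, the floor taken for detection, corresponded to between 0.136 and 0.155 CPM (counts relative to the total of the library), which covers counting error only. App, the mouse counterpart of the transgene, lay between 275 and 281 FPKM (mapped fragments, scaled for gene length and for the size of the library) in control and between 325 and 333 in TgAPPswe libraries (log2 fold change 0.45 ± 0.0509 SE, adjusted p = 7.87e-05, edgeR). An exact two-sided permutation test of App over the 6 libraries gave p = 0.1, the smallest value that 3 against 3 libraries can give. How reads of the human transgene were assigned was not tested. By markers, the sorted cells did not look like OB progenitors alone. The macrophage genes Lyz2 (5379 to 9263 FPKM over the 6 libraries) and Cd68 (452 to 1296 FPKM) were far more abundant per length than Col1a1 (26.9 to 45.7 FPKM) or Runx2 (1.30 to 2.13 FPKM), and Bglap, the osteocalcin gene whose promoter drives Cre, did not exceed 1.25 FPKM. The name OB progenitors is kept below as the name of the sorted population. Because the libraries are bulk samples, fewer cells of a type that expresses class II genes and less class II RNA per cell cannot be told apart.

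Genes of the peptide-presenting chains lay several-fold lower in TgAPPswe libraries. H2-Aa, the alpha chain of the I-A molecule (Entrez 14960, chromosome 17, 34282744 to 34287823, minus strand, mm10), was at 197, 249.7 and 211 FPKM in control replicates 1, 2 and 3 and at 27.8, 14.6 and 20.7 FPKM in TgAPPswe replicates 1, 2 and 3. The means were 219 ± 27.4 (SD, n = 3) and 21.0 ± 6.64 FPKM, a 10.4-fold ratio of means, and the log2 fold change was -3.16 ± 0.216 (SE). The lowest control library was 7.06 times the highest TgAPPswe library, so the groups did not overlap.

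The beta chain gene of the same molecule, H2-Ab1 (Entrez 14961, chromosome 17, 34257689 to 34269419, plus strand), was at 199, 261 and 218 FPKM in the control libraries and at 47.5, 18.1 and 34.3 FPKM in the TgAPPswe libraries. Its mean was 226 ± 31.6 (SD, n = 3) against 33.3 ± 14.7 FPKM, with a log2 fold change of -2.54 ± 0.300 (SE). TgAPPswe replicate 1 held 2.62 times the level of TgAPPswe replicate 2, the widest spread of any of the 7 genes within a genotype, yet both lay below every control library.

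H2-Eb1 encodes the beta chain of the other class II isotype, I-E (Entrez 14969, chromosome 17, 34305867 to 34316674, plus strand). It was at 71.5, 97.2 and 83.7 FPKM in the control libraries and at 8.61, 4.08 and 6.40 FPKM in the TgAPPswe libraries. The means, 84.1 ± 12.9 (SD, n = 3) and 6.36 ± 2.27 FPKM, stood in a 13.2-fold ratio, and the log2 fold change of -3.50 ± 0.238 (SE) was the most negative of the 7. The alpha chain gene of I-E, H2-Ea, had no values to analyse here. The level of H2-Eb1 therefore does not show that these cells made an I-E molecule, which was not measured.

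Cd74 was the most abundant of the 7 genes in both genotypes (Entrez 16149, chromosome 18, 60803848 to 60812652, plus strand). Control libraries held 959, 1268 and 1095 FPKM, and TgAPPswe libraries held 216, 108 and 161 FPKM. Mean Cd74 was 1107 ± 155 (SD, n = 3) against 162 ± 54.2 FPKM, with a log2 fold change of -2.55 ± 0.241 (SE). In control libraries 99.8% of all genes had a lower mean FPKM than Cd74, and in TgAPPswe libraries 97.2% did, so it remained an abundant transcript at its lower level.

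H2-DMa and H2-DMb1, the subunits of the peptide editor, differed less between the genotypes than the chain genes and varied less among libraries. H2-DMa (Entrez 14998, chromosome 17, 34119541 to 34139101, plus strand) was at 29.6, 28.0 and 27.4 FPKM in control and at 6.1, 7.5 and 5.4 FPKM in TgAPPswe libraries, a log2 fold change of -1.79 ± 0.104 (SE). H2-DMb1 (Entrez 14999, chromosome 17, 34153072 to 34160230, plus strand) was at 50.5, 53.4 and 48.4 FPKM in control and at 22.5, 24.7 and 21.3 FPKM in TgAPPswe libraries, a log2 fold change of -0.94 ± 0.0710 (SE). The ratio of means was 4.48 for H2-DMa and 2.22 for H2-DMb1, and neither overlapped between the genotypes. Both carry a reservation on counting. The estimated counts of H2-DMb1 were fractional in all 6 libraries and those of H2-DMa in 3, a sign of reads shared with other genes, and the gene model of H2-DMa overlaps that of Brd2.

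Ciita was the least abundant of the 7 genes (Entrez 12265, chromosome 16, 10480059 to 10528418, plus strand). Its levels were 2.65, 3.60 and 3.19 FPKM in the control libraries and 0.26, 0.19 and 0.32 FPKM in the TgAPPswe libraries. These rest on 303, 420 and 359 estimated counts in control and on 35, 26 and 40 in TgAPPswe libraries, all above the floor of 3. The means of 3.15 ± 0.476 (SD, n = 3) and 0.257 ± 0.0651 FPKM gave a 12.3-fold ratio, and the log2 fold change was -3.36 ± 0.189 (SE). On the scale of log2(FPKM + 1), which compresses low values, the difference was -1.72.

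**Figure D1:**
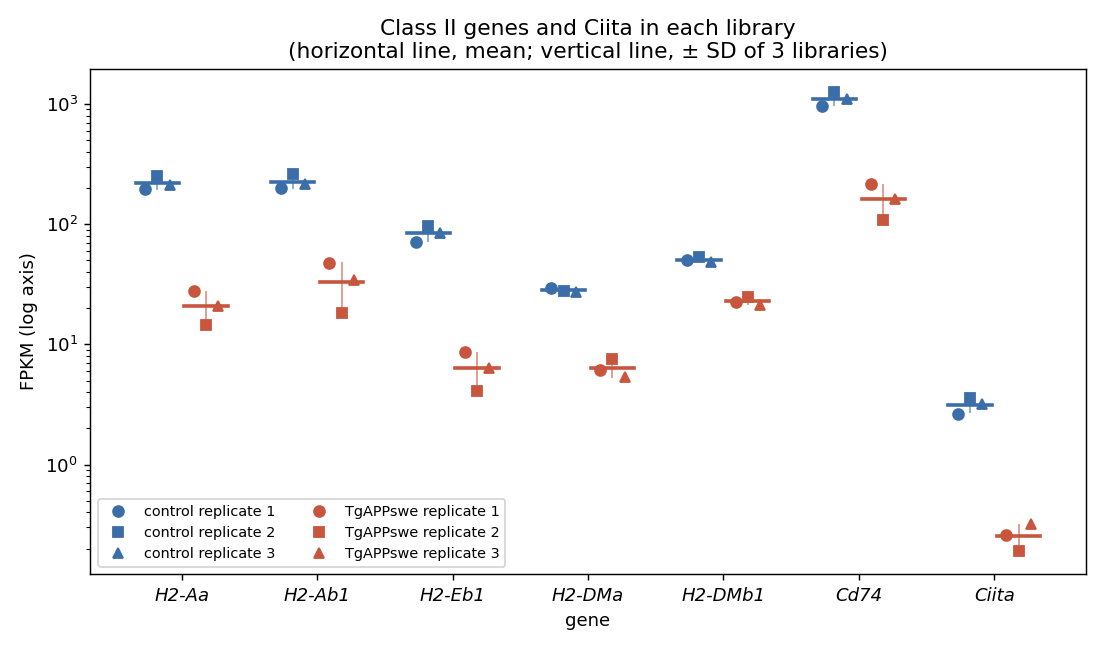
FPKM of each of the 7 genes in each of the 6 libraries on a log axis, with control and TgAPPswe libraries as separate points and bars at the group means. Every control library lies above every TgAPPswe library for all 7 genes, with the narrowest gap in H2-DMb1 (48.4 against 24.7 FPKM).

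Of the 7 genes, 6 met the study's thresholds for a lower level (adjusted p at or below 0.05 and at least a 2-fold difference), where 9.2% of all genes tested did. The exception, H2-DMb1, met the adjusted p alone, as did all the others, which 31.5% of all genes tested did in the lower direction. FPKM lay lower in every TgAPPswe library than in any control library for all 7, and for 48.3% of all genes tested. The median log2 fold change was -2.55 over the 7 and -0.02 over all genes tested. These counts describe genes that were selected on this contrast, and nothing is read from them. Over all genes, 1169 were called lower and 1130 higher, and without the TMM scaling factors 1732 were called lower and 846 higher, with a median over all genes of -0.23.

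The order of the levels within a genotype also differed. In control libraries the order of mean FPKM was Cd74, H2-Ab1, H2-Aa, H2-Eb1, H2-DMb1, H2-DMa and Ciita, with overlapping ranges in H2-Ab1 and H2-Aa (199 to 261 against 197 to 249.7 FPKM), although H2-Aa was the lower of the pair in each of the 3 libraries. In TgAPPswe libraries H2-DMb1 (21.3 to 24.7 FPKM) lay within the range of H2-Aa (14.6 to 27.8 FPKM), and H2-Eb1 (4.08 to 8.61 FPKM) and H2-DMa (5.4 to 7.5 FPKM) had nearly the same mean. The ratio of H2-Ab1 to H2-DMb1 was 4.44 ± 0.472 (SD, n = 3) in control and 1.49 ± 0.699 in TgAPPswe libraries. Together the 7 genes took 18.04 to 23.5 of every 10000 estimated counts in control libraries and 2.15 to 3.94 in TgAPPswe libraries.

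Ratios between partner genes showed which levels moved in step. Cd74 stood at 4.90 ± 0.113 (SD, n = 3) times the FPKM of H2-Ab1 in control and at 5.07 ± 0.773 times in TgAPPswe libraries, and it supplied 64.2% and 63.2% of the estimated counts of the 7 genes. The alpha to beta ratio of I-A, H2-Aa over H2-Ab1, was 0.972 ± 0.0148 in control and 0.665 ± 0.121 in TgAPPswe libraries, with no overlap (0.957 to 0.987 against 0.586 to 0.804). H2-Eb1 over H2-Ab1 was 0.372 ± 0.0131 and 0.198 ± 0.0239. The partner subunits of H2-DM diverged as well, with H2-DMb1 at 1.79 ± 0.101 times the FPKM of H2-DMa in control and at 3.64 ± 0.327 times in TgAPPswe libraries. All of these ratios are built from values the genes were selected on and are descriptions.

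Libraries of the same genotype differed in a shared pattern. H2-Aa, H2-Ab1, H2-Eb1, Cd74 and Ciita were all highest in control replicate 2 and lowest in control replicate 1. Among TgAPPswe libraries the chain genes and Cd74 were highest in replicate 1 and lowest in replicate 2, where H2-Ab1 stood at 0.544 and Cd74 at 0.668 of the TgAPPswe mean. H2-DMa and H2-DMb1 instead were highest in TgAPPswe replicate 2, at 1.18 and 1.08 of their TgAPPswe means, and Ciita was highest in TgAPPswe replicate 3, at 1.25. Deviations from the genotype means correlated at Pearson r = 0.9996 between H2-Eb1 and Cd74, 0.989 between H2-Aa and H2-Ab1, 0.738 between H2-Aa and Ciita, 0.810 between H2-DMa and H2-DMb1 and -0.864 between H2-DMa and Ciita. These coefficients describe 6 libraries that share depth and preparation within a sample, and carry no test.

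**Figure D2:**
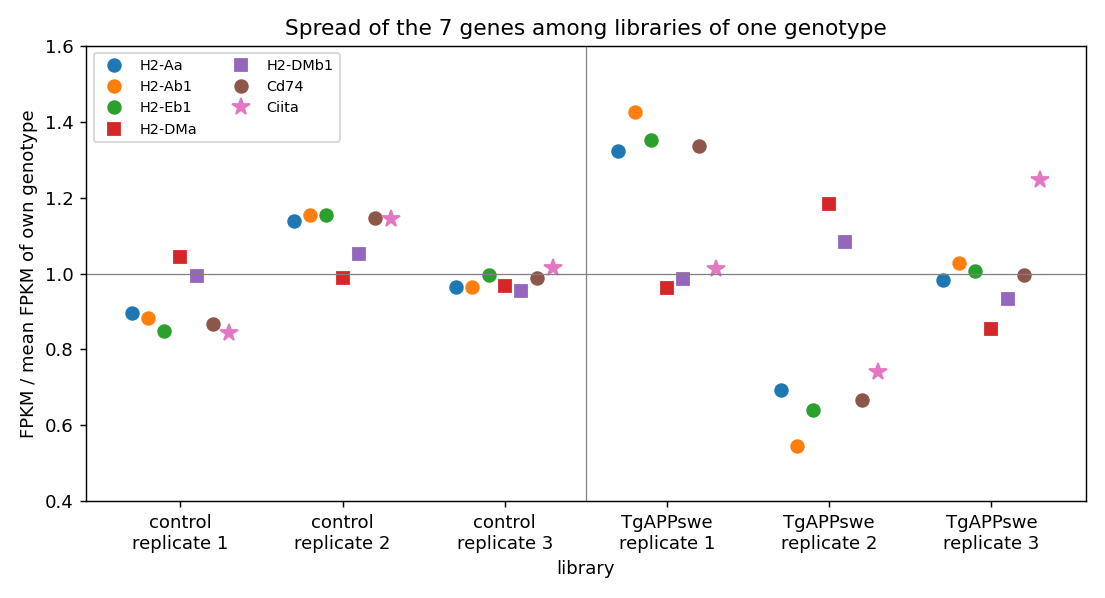
FPKM of each of the 7 genes in each library divided by the mean of its own genotype, with circles for the chain genes and Cd74, squares for the H2-DM genes and a star for Ciita. In TgAPPswe replicate 2 the circles lie below 0.7 and the squares above 1, whereas the order is turned in TgAPPswe replicate 1.

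Outside the 7, the class II genes were few and low. H2-DMb2, a second beta subunit gene of H2-DM, was at 2.96, 3.44 and 3.28 FPKM in control and at 0.29, 0.49 and 0.41 FPKM in TgAPPswe libraries, and it fell with a log2 fold change of -2.76 ± 0.272 (SE, adjusted p = 3.67e-05, edgeR with Benjamini-Hochberg adjustment over all genes). Its counts were fractional in all 6 libraries. The transcripts of H2-DMb1 and H2-DMb2 aligned with 77.8% identity over 1476 columns and shared an identical run of 221 bases, so the division of reads between them is uncertain. H2-Ob, a chain of H2-DO, which restrains H2-DM, had a log2 fold change of 0.84 ± 0.355 at levels between 0.23 and 0.73 FPKM and did not pass the test (adjusted p = 0.0671). It passed without control replicate 1 (adjusted p = 0.0426) and without TgAPPswe replicate 2 (adjusted p = 0.0344), by edgeR in each case. H2-Oa, the partner chain, lay between 0.09 and 0.84 FPKM, and H2-Eb2 held at most 0.01 FPKM. Neither had enough counts to be tested.

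The class II genes other than Cd74 and Ciita lie in 1 stretch of chromosome 17, interleaved with genes of class I presentation. From H2-K1 to Notch4, 26 protein-coding genes were listed and 19 were tested, 5 of them members of the 7. Of the 14 tested others, 5 rose, 5 fell and 4 did not pass at the adjusted p, near the 32.5% and 31.5% of all genes tested, with a median log2 fold change of 0.13. Those past the 2-fold threshold were Tap1 and Psmb8, which rose, and H2-DMb2, H2-Ke6 and Notch4, which fell. That is 2 and 3 of the 14, beside 8.9% and 9.2% of all genes tested. Without control replicate 1 the stretch held 4 genes past the threshold upward in place of 2. Between H2-DMb1 and H2-Ab1 stand, beside H2-Ob, Psmb9, Tap1, Psmb8 and Tap2, components of the immunoproteasome and the peptide transporter. Tap1 was at 27.8, 20.01 and 22.2 FPKM in control and at 54.2, 60.3 and 56.4 FPKM in TgAPPswe libraries (log2 fold change 1.50 ± 0.112, adjusted p = 7.49e-06, edgeR). Brd2, whose model overlaps that of H2-DMa, did not pass (0.03 ± 0.0580, adjusted p = 0.712, edgeR), but it passed as lower without TMM factors (-0.19, adjusted p = 0.026, edgeR) and with limma on log2(FPKM + 1) (-0.25, adjusted p = 0.00263).

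**Figure D3:**
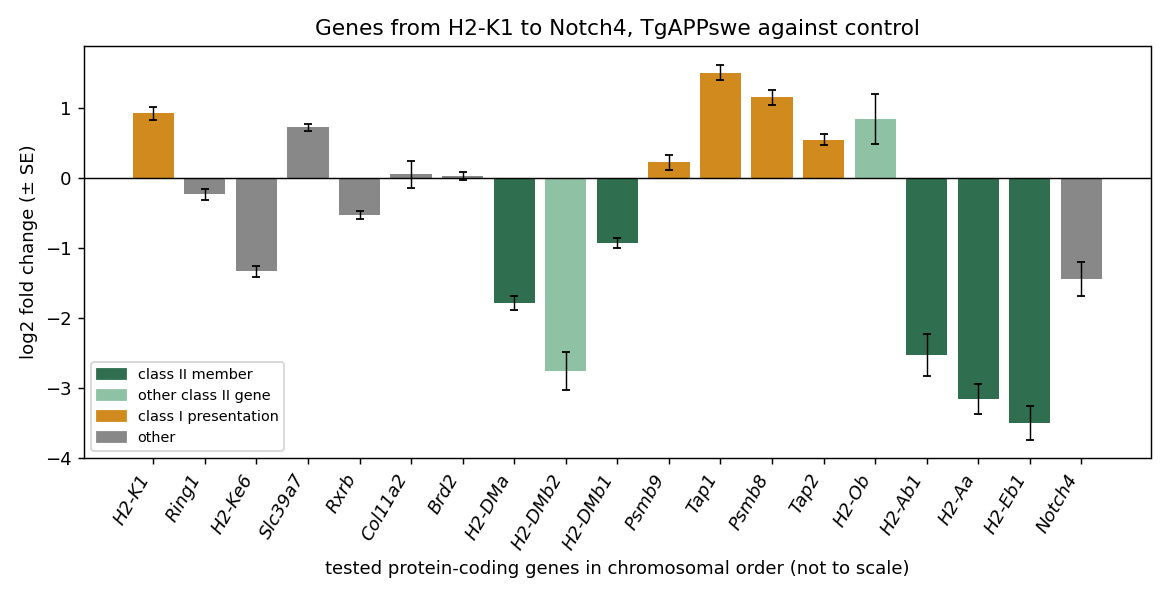
Log2 fold change (TgAPPswe against control, bars, with SE as error lines) of the 19 tested protein-coding genes from H2-K1 to Notch4, in chromosomal order and not to scale. The 5 class II members lie below 0, from -0.94 in H2-DMb1 to -3.50 in H2-Eb1, and Tap1, at 1.50, is the highest bar.

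The class I genes listed as a contrast went the other way. Of 9 tested, 5 were called higher (B2m, Tap1, Tapbp, Psmb8 and Nlrc5), where 8.9% of all genes tested were, and 8 passed the adjusted p upward, where 32.5% did. None was called lower at either threshold. Without TMM factors, and on the log2(FPKM) scales, 2 were called higher in place of 5. Nlrc5 encodes the class I counterpart of CIITA and was at 6.69, 5.34 and 6.20 FPKM in control and at 11.2, 15.3 and 13.2 FPKM in TgAPPswe libraries (log2 fold change 1.33 ± 0.122, adjusted p = 2.33e-05, edgeR). The ratio of Nlrc5 to Ciita was 1.98 ± 0.522 (SD, n = 3) in control and 54.9 ± 22.0 in TgAPPswe libraries. H2-K1, a class I heavy chain with fractional counts in all 6 libraries, rose by 0.92 ± 0.0901 on the log2 scale (adjusted p = 3.54e-05, edgeR), and its FPKM went from 2.52 ± 0.632 to 31.9 ± 16.2 times that of H2-Ab1. Whether the class I and class II lists differed was not tested, since the class II genes were selected on this contrast.

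Factors that assemble on the X, X2 and Y boxes were present in both genotypes. None of 11 tested was called at the 2-fold threshold, beside 8.9% of all genes tested upward and 9.2% downward, and 5 fell and 2 rose at the adjusted p, beside 31.5% and 32.5%, with a median log2 fold change of -0.18. In the RFX complex, Rfxank fell from 6.17 ± 0.617 to 2.82 ± 0.184 FPKM (SD, n = 3, log2 fold change -0.92 ± 0.0980 SE, adjusted p = 5.84e-05, edgeR, with fractional counts in all 6 libraries). Rfxap fell from 9.64 ± 0.983 to 5.43 ± 0.557 FPKM (-0.61 ± 0.110, adjusted p = 0.00124, edgeR). The DNA-binding subunit Rfx5 was at 6.07 ± 0.200 and 4.88 ± 0.372 FPKM and did not pass (-0.11 ± 0.0748, adjusted p = 0.231, edgeR), although it passed without TMM factors (-0.32, adjusted p = 0.00464, edgeR) and on the 3 FPKM settings (adjusted p from 0.0119 to 0.0257, limma). Among the NF-Y and CREB genes, Nfyb (-0.36), Nfya (-0.19) and Creb1 (-0.19) fell by small amounts, and Creb1 lost the call with DESeq2 and without any 1 of 5 libraries, and Nfya without any 1 of 3. The coactivator genes Kat2b (0.63) and Smarca4 (0.30) rose, and Smarca4 lost the call without TMM factors (adjusted p = 0.240, edgeR) and on the FPKM scales.

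Genes that induce Ciita included some that rose and some that fell, as genes at large did. Of 11 tested, 2 were called higher, Jak2 among them, and 2 lower (Irf4 and Ifngr1), beside 8.9% and 9.2% of all genes tested, with a median log2 fold change of -0.32. Ifngr1, the ligand-binding chain of the interferon-gamma receptor, fell from 131, 100.1 and 112 FPKM in control to 44.2, 49.5 and 44.2 FPKM in TgAPPswe libraries (log2 fold change -1.10 ± 0.0989, adjusted p = 2.15e-05, edgeR). Without control replicate 1 it was not past the 2-fold threshold, which left 1 inducer called lower. The partner chain Ifngr2 rose by 0.30 ± 0.0736 (adjusted p = 0.00642, edgeR), a call that was lost without TMM factors (adjusted p = 0.266, edgeR) and on the 3 FPKM settings (adjusted p from 0.263 to 0.316, limma).

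Jak2, a kinase of that receptor, rose from 9.51, 9.12 and 9.99 FPKM to 25.3, 17.1 and 20.98 FPKM (log2 fold change 1.42 ± 0.133, adjusted p = 2.73e-05, edgeR, fractional counts in 4 libraries). Irf1, whose product acts on the interferon-responsive Ciita promoter, fell from 36.2 ± 2.21 to 22.3 ± 0.235 FPKM (SD, n = 3, -0.48 ± 0.0637 SE, adjusted p = 2.15e-04, edgeR), and its partner Irf2 fell (-0.83 ± 0.0512, adjusted p = 2.58e-06, edgeR). So the genes along this route did not move in 1 direction. Spi1 (PU.1) rose by 0.54 and Irf8 fell by 0.47 on the log2 scale, and both act on the myeloid promoter of Ciita. Irf4 lay below 2 FPKM throughout and fell from 1.26 ± 0.442 to 0.197 ± 0.0351 FPKM (-2.46 ± 0.298, adjusted p = 1.26e-04, edgeR), a difference of -0.90 on the log2(FPKM + 1) scale. Ifng itself was listed at 0 in 5 libraries and was not tested.

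Most of the listed repressors of Ciita or of class II expression were higher. All 7 were tested, 4 were called higher (Socs1, Il10, Socs3 and Prdm1), where 8.9% of all genes tested were, and none lower, with a median log2 fold change of 1.18. Without TMM factors and on the 3 FPKM settings 3 were called higher, and Prdm1 was then under 2-fold. Socs1, which inhibits JAK kinases downstream of the interferon-gamma receptor, rose from 2.37, 2.06 and 2.22 FPKM to 13.92, 13.59 and 13.96 FPKM (log2 fold change 2.85 ± 0.108, adjusted p = 2.05e-07, edgeR). Il10, an anti-inflammatory cytokine that lowers surface class II in macrophages, rose from 8.46 ± 0.560 to 35.5 ± 5.95 FPKM (2.28 ± 0.119, adjusted p = 1.01e-06, edgeR). Both chains of its receptor fell, Il10ra with a log2 fold change of -0.49 and Il10rb with -0.74. Prdm1 (BLIMP-1), a repressor of the Ciita gene, rose from 7.36 ± 1.39 to 14.5 ± 0.144 FPKM (1.18 ± 0.122, adjusted p = 4.86e-05, edgeR). The part of these genes in the Ciita difference was not tested.

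**Figure D4:**
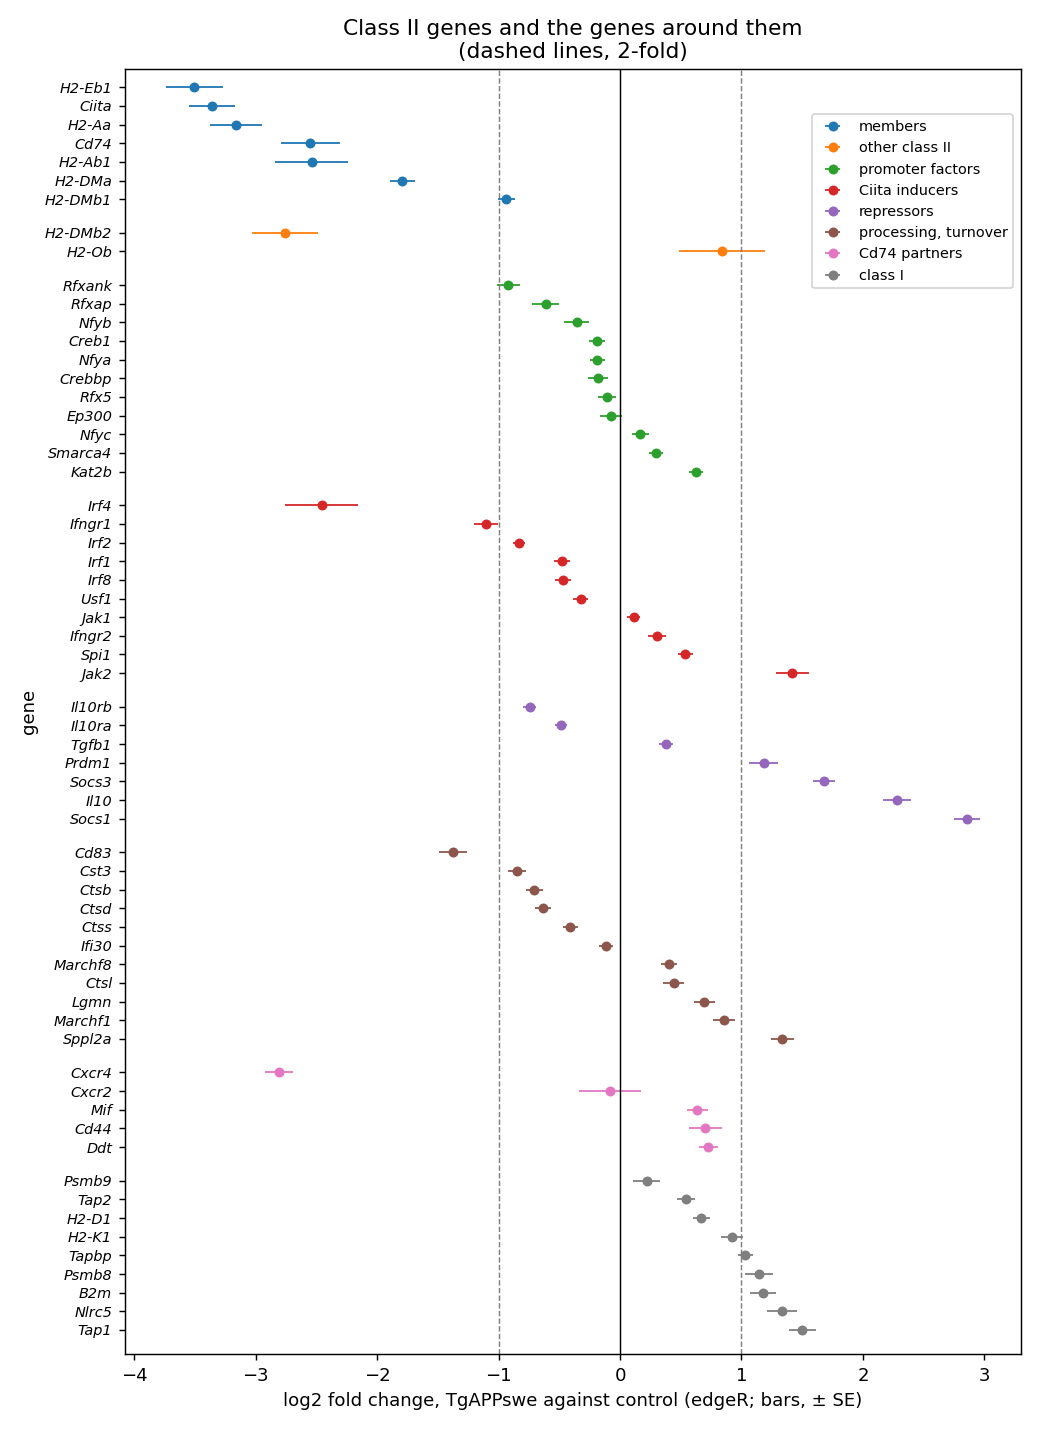
Log2 fold change (TgAPPswe against control, points, with SE as error lines) of tested genes of each list, with the 7 genes first. The 7 lie between -0.94 and -3.50, the repressor and class I lists lie mostly above 0, and the promoter factors stay within 1 unit of 0.

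Genes that load and turn over class II molecules were called about as often as genes at large. Of 11 tested, 1 was called higher (Sppl2a) and 1 lower (Cd83), beside 8.9% and 9.2% of all genes tested, and 5 rose and 5 fell at the adjusted p, beside 32.5% and 31.5%. Sppl2a, the protease that clears the last membrane stub of the invariant chain, rose from 40.4 ± 3.53 to 92.8 ± 6.82 FPKM (SD, n = 3, log2 fold change 1.34 ± 0.0963 SE, adjusted p = 5.96e-06, edgeR, fractional counts in 5 libraries). Ctss, the cathepsin that trims the invariant chain in dendritic and B cells, fell from 1387 ± 80.6 to 898 ± 36.6 FPKM (-0.41 ± 0.0631, adjusted p = 5.19e-04, edgeR), and Cst3, a cathepsin inhibitor, fell by a log2 fold change of -0.85. Marchf1 encodes a ubiquitin ligase that removes class II molecules from the surface, and it rose from 18.4 ± 0.856 to 28.7 ± 3.82 FPKM (0.86 ± 0.0878, adjusted p = 4.61e-05, edgeR). Cd83, which opposes that ligase, fell from 20.4, 26.9 and 22.5 FPKM to 7.11, 8.59 and 7.48 FPKM (-1.38 ± 0.112, adjusted p = 1.21e-05, edgeR).

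Cd74 also serves as the receptor for the cytokine MIF, with CD44 and CXCR4 as partners. Of the 5 genes of this list, only Cxcr4 was called lower, beside 9.2% of all genes tested, and none higher. Cxcr4 fell from 173, 217 and 204 FPKM to 20.7, 27.8 and 24.7 FPKM (log2 fold change -2.81 ± 0.117, adjusted p = 3.24e-07, edgeR). The ligand genes Mif (0.64) and Ddt (0.73) and the partner Cd44 (0.70) rose at the adjusted p, beside 32.5% of all genes tested, and Cxcr2 did not pass. Per length, Cd74 stood at 4.85 ± 1.05 (SD, n = 3) times the FPKM of Mif in control and at 0.517 ± 0.145 times in TgAPPswe libraries.

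Marker lists of cell types that express class II genes were examined beside these values. Of 10 dendritic cell markers, 8 stayed below 1 FPKM in every library, among them Flt3, Zbtb46, Ccr7 and Clec9a, and the summed FPKM of the list was 18.9 to 43.1 in control and 18.6 to 30.4 in TgAPPswe libraries. Of the 5 that were tested, 3 were called higher (Batf3, Xcr1 and Dpp4) and none lower, beside 8.9% and 9.2% of all genes tested. Dpp4 lay between 0.04 and 0.22 FPKM, on 2.53 to 17.2 estimated counts, which reaches the detection floor. Itgax (CD11c), which macrophages also express, was the largest part of the sum except in TgAPPswe replicate 2, where Batf3 (10.25 FPKM) was larger. It was at 15.8, 40.9 and 29.4 FPKM in control and at 17.8, 7.31 and 12.6 FPKM in TgAPPswe libraries, and it did not pass the test (log2 fold change -0.97 ± 0.378, adjusted p = 0.0507, edgeR, fractional counts in 6 libraries). Itgax did pass, beyond 2-fold, without TMM factors (-1.19, adjusted p = 0.0225), without control replicate 1 (-1.27, adjusted p = 0.0103) and without TgAPPswe replicate 1 (-1.32, adjusted p = 0.0166), all by edgeR, and with limma on log2(FPKM + 1) (-1.11, adjusted p = 0.0283). It also passed with either of the other count filters (adjusted p = 0.0405 and 0.0453, edgeR). Its groups overlapped, but within each genotype it ranked the libraries in the same order as the chain genes and Cd74 did. That order was not particular to Itgax, since 733 of the 12701 genes tested (5.77%) had it, among them Cd14 and the stromal gene Postn, both named here after their values were seen. The part of CD11c+ cells in the class II levels was not tested.

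Of 10 macrophage markers, all tested, 4 were called higher (Adgre1, Itgam, Aif1 and Fcgr1) and 4 lower (Csf1r, Cd68, Mrc1 and Mertk), beside 8.9% and 9.2% of all genes tested. The summed FPKM of the list was 12989 to 13434 in control and 9142 to 13208 in TgAPPswe libraries. Most of that sum was Lyz2 alone, at 8888 to 9263 FPKM in control and 5379 to 8724 in TgAPPswe libraries. The B cell list summed to 2.95 to 3.67 FPKM in control and to 5.11 to 6.26 in TgAPPswe libraries, with Cd79b called higher (1.18 ± 0.261 to 3.44 ± 0.268 FPKM, SD, n = 3, log2 fold change 1.75 ± 0.212 SE, adjusted p = 1.27e-04, edgeR). The B cell genes Cd79a and Ms4a1 did not exceed 0.09 FPKM in any library. In the T cell list Cd4 and Il7r were called lower, and its sum was 14.02 to 25.99 FPKM in control and 2.83 to 5.42 in TgAPPswe libraries, while Cd3d and Cd3e did not exceed 0.08 FPKM. Neutrophil markers summed to 12.8 to 53.7 FPKM in control and 18.4 to 51.7 in TgAPPswe libraries. Of 7 tested, Camp was called higher, on 1 to 9 estimated counts in control libraries, and the other 6 did not pass. Stromal and OB lineage markers summed to 148 to 164 and 114 to 178 FPKM, with none called. Endothelial markers summed to 3.86 to 5.92 and 5.12 to 6.07 FPKM, with Pecam1 called higher. Kdr, of the same list, was lower but short of 2-fold (log2 fold change -0.97, adjusted p = 0.00113, edgeR). The calls in the B cell, T cell, neutrophil and endothelial lists stand beside 8.9% of all genes tested called higher and 9.2% lower. The summed class II level of 1509 to 1961 FPKM in control and 177 to 329 FPKM in TgAPPswe libraries had no overlap. The T cell sum did not overlap either and was lower in TgAPPswe libraries, while the B cell sum did not overlap and was higher. The part of any of these cell types in it was not tested.

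**Figure D5:**
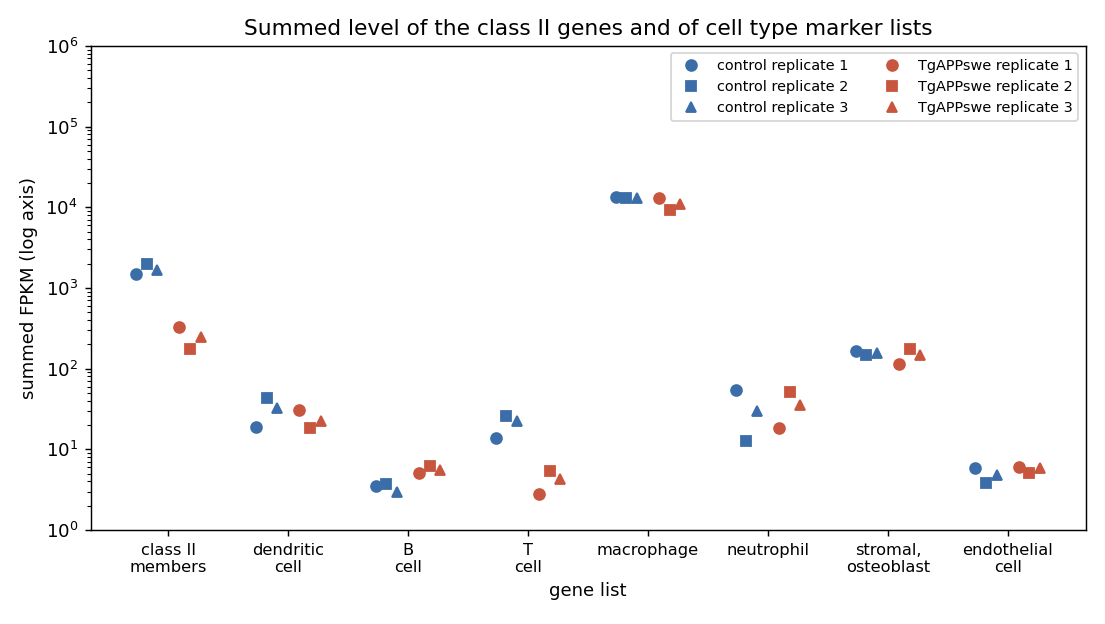
Summed FPKM of the 7 class II genes and of 7 cell type marker lists in each library, on a log axis. The class II sum separates the genotypes (1509 to 1961 against 177 to 329 FPKM), and the macrophage sum is the highest of all lists in every library.

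Genes with the pattern over libraries most like that of the class II genes were listed by Pearson's correlation of log2 CPM over the 6 libraries. With the mean of the 7 genes, the nearest were Ctps2, Lilrb4a, Porcn, Tmem109 and Lpar6, with coefficients from 0.9991 to 0.9995. Lpar6, a receptor for lysophosphatidic acid, was at 111 ± 12.4 (SD, n = 3) and 19.1 ± 3.04 FPKM, and Lilrb4a, an inhibitory receptor of myeloid cells, at 516 ± 24.4 and 218 ± 15.1 FPKM. With Ciita alone, the nearest were Eepd1, Rdh10, Tbl1xr1, Hp1bp3 and Plxdc2, with coefficients from 0.9987 to 0.9995. Rdh10, a retinol dehydrogenase, was at 13.8 ± 1.14 and 3.45 ± 0.367 FPKM. Over 6 libraries in 2 groups a coefficient of this size is mostly the difference between the genotypes, so it is given as a description.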

How the data were processed

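RNA of sorted tdTomato+ BMSCs was sequenced on a DNBSEQ-G400 instrument. The authors deposited estimated counts per gene, not normalized and not whole for 13.3% to 14.4% of genes, and FPKM, scaled by them for gene length and library. The submitters' processing notes name HISAT2 2.0.4, Bowtie2 2.2.5, RSEM 1.2.12, DESeq2 1.4.5 and build mm10, without their roles. A second deposited table repeats FPKM beside the authors' own fold changes and p-values and was not used. The 7 genes and all gene lists were chosen with earlier results of these data known, and the genes named are the 7, the genes of the lists and of the stretch from H2-K1 to Notch4, and the 5 nearest by correlation.

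Counts were rounded and compared with edgeR 4.0.16 (R 4.3.3, quasi-likelihood test, default expression filter, TMM, no covariate, all 6 libraries), with Benjamini-Hochberg adjustment over 12701 genes, and called at an adjusted p of 0.05 and 2-fold. SE belongs to the log2 fold change, and FPKM is given as mean ± SD. Alternatives were DESeq2 1.42.0, RLE or library size scaling, other filters, a replicate block, limma 3.58.1 on log2(FPKM + 1) and log2(FPKM + 0.1), and leaving out each library. The procedure was tested on simulated data. Correlations used log2 CPM with a prior count of 2. For 24 genes with date-like symbols, names came from Entrez identifiers in RefSeq. Gene positions are from GENCODE M21 (GRCm38). Some genes of the lists are counted but not reported here by name.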

Additional observations from a re-analysis of the deposited data

How the results depend on the processing

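For each of the 7 genes the log2 fold change was negative under every alternative run, and 6 or 7 were called lower throughout. It ranged from -3.43 to -2.94 in H2-Aa, -2.90 to -2.23 in H2-Ab1, -3.80 to -3.25 in H2-Eb1, -2.16 to -1.69 in H2-DMa, -1.15 to -0.88 in H2-DMb1, -2.83 to -2.31 in Cd74 and -3.57 to -1.72 in Ciita, whose smallest value is on the log2(FPKM + 1) scale. H2-DMb1 reached 2-fold without TMM factors (-1.15) and on the log2(FPKM + 1) scale (-1.12). Same-numbered libraries of the genotypes deviated together with correlations of 0.0127, 0.00664 and 0.141 over 12701 genes. For differently numbered libraries the correlations ran from -0.0522 to 0.0251, so the value of replicate 3 was the highest. Whether same-numbered libraries share a batch cannot be told from these few coefficients. With the replicate number as a block, 6 of the 7 were called lower with a median of -2.62, 1115 genes were called higher and 1147 lower, and H2-Ob passed (0.84, adjusted p = 0.0308, edgeR).

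Over all genes, limma on log2(FPKM + 1), log2(FPKM + 0.1) and log2(FPKM + 1) without a filter called 592, 737 and 589 genes higher, and the adjusted p alone called 4122 higher and 4007 lower. At the adjusted p alone, the counts were 2 higher and 5 lower among promoter factors, 4 and 6 among inducers, 5 and 2 among repressors, and 5 and 5 in processing and turnover. They were 3 and 1 among Cd74 partners, 8 and 0 among class I genes, and 5 and 10 in the H2-K1 to Notch4 stretch, members of the 7 included. Without TMM factors, the counts were 1 promoter factor lower, 2 processing genes lower, 2 class I genes higher and 1 gene of the stretch higher. On all 3 FPKM settings, 2 processing genes were lower, 2 class I genes higher and 1 gene of the stretch higher, log2(FPKM + 0.1) called 1 promoter factor lower, and both log2(FPKM + 1) settings left 1 inducer lower. With at least 10 counts in every library, 0 of the other class II genes were lower, because H2-DMb2 was then not tested. Leaving out 1 library gave 0 to 1 other class II genes higher, 1 to 2 inducers lower and 2 to 4 genes of the stretch higher. Brd2, which did not pass the adjusted p in the reported fit, turned sign and passed as lower without TMM factors (-0.19) and on the FPKM settings (-0.25), and turned sign without passing without control replicate 1 (-0.0084) and without TgAPPswe replicate 2 (-0.0012), and leaving out 1 library gave -0.0084 to 0.0587. Other causes were not tested. Ciita in TgAPPswe libraries rests on 26 to 40 counts, and H2-Oa, H2-Eb2 and Ifng could not be tested at this depth.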
